A study of Mus musculus with 20 samples.

Results

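TFIIE and TFIIH are the general transcription factors that join the promoter complex last, and their peak lists from mouse thymocytes were compared with each other. Every peak of either list was a member, 20296 peaks (11678 of TFIIE and 8618 of TFIIH) of the 270514 peaks in the 16 lists analysed. Each list was split into shared peaks, which had 1 bp or more in common with a peak of the other list, and peaks found alone. This gave 3523 shared and 8155 alone TFIIE peaks, and 3596 shared and 5022 alone TFIIH peaks. The areas of the peaks took no part in this split, and neither did the lists with which the 4 sets were then compared.

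By its title, the series asked where general transcription factors are recruited at enhancers and promoters of a tissue. The cells were CD4+/CD8+ double-positive T cells, a middle stage of T-cell development, purified on beads from the thymus of C57BL/6 mice aged 5 to 6 weeks. No genotype, treatment or time point was compared, and each target was represented by 1 list. TFIIE was precipitated with antibody C-21 and TFIIH with antibody S-19, both from the same vendor and used on Protein-G beads. The names of the deposited files record merged replicates for both lists. The partner lists were RNA polymerase II as a whole (total Pol II), its form phosphorylated on serine 5 (Ser5P), TFIIB, open chromatin isolated by FAIRE, a method that needs no antibody, and the histone marks H3K4me3 and H3K4me1. TBP, Taf1, TFIIA, TFIIF, CBP, ETS1, Ser2P Pol II and H3K36me3 served as further readouts. The input, immunoglobulin and RNA samples were not analysed here.

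Assembly of the complex begins when TBP, with Taf proteins such as Taf1, binds the core promoter and TFIIA and TFIIB join it. Pol II then enters with TFIIF. TFIIE binds to Pol II and brings in TFIIH, whose helicase subunits open the DNA and whose kinase phosphorylates serine 5 in the tail repeats of Pol II. In the textbook order a site with TFIIH has therefore also bound TFIIE. H3K4me3 marks the start regions of active genes, while H3K4me1 without H3K4me3 is typical of enhancers.

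The TFIIE list covered 1.88 Mb with peaks of 160 bp median width, and the TFIIH list covered 1.19 Mb with peaks of 150 bp. The partner lists ranged from 10644 peaks for Ser5P to 74607 for H3K4me1. FAIRE and TFIIB covered 1.39 and 1.36 Mb, total Pol II 3.59 Mb, H3K4me3 23.0 Mb and H3K4me1 69.4 Mb, so overlap with the histone marks was easier to reach than overlap with the factors. Because whole cell populations were used, a site bound in fewer cells and a site bound less in each cell cannot be told apart. Intervals after a share are Wilson 95% intervals, those after a difference of 2 shares in percentage points are Newcombe 95% intervals, and both cover counting error only. Neighbouring peaks are not independent, and a single list per target gives no replicate spread, so p-values were not computed. A difference counts as called where 0 lay outside its interval, and beside it stands the number of the 20 chromosomes with peaks (all but Y) that had the same sign.

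TFIIE and TFIIH met at a minority of the peaks of either list. The shared peaks made up 30.2% (29.3 to 31.0) of the TFIIE list and 41.7% (40.7 to 42.8) of the TFIIH list, and formed 3635 overlapping pairs with a median of 150 bp in common. Hence 58.3% (57.2 to 59.3) of TFIIH peaks had no TFIIE peak on them. Few of the peaks found alone lay just beside the other factor. A peak of the other list lay within 500 bp of 9.17% of TFIIE alone peaks and 5.22% of TFIIH alone peaks, and the median gap to the other list was 37.0 kb for TFIIE alone and 81.7 kb for TFIIH alone. At the limit of the 1 bp rule, 34 pairs shared a single 10 bp bin, while 36 TFIIE alone peaks and 31 TFIIH alone peaks ended within 10 bp of the other list.

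Both lists reached their highest areas where they overlapped. The area, the authors' value for the signal summed over a peak, was used only to rank peaks within a list, with decile 1 the lowest and decile 10 the highest. The shared peaks were 8.05%, 30.0% and 56.5% of TFIIE peaks in deciles 1, 5 and 10, and 23.5%, 31.8% and 80.4% of TFIIH peaks in the same deciles. Wider peaks have more room to overlap, and the median width of TFIIE peaks ran from 40 bp in decile 1 to 350 bp in decile 10. For TFIIH it ran from 50 to 190 bp. The part of width in this trend was not tested.

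The 4 sets differed in their chromatin. TFIIE peaks alone were mostly promoter-marked, TFIIH peaks alone mostly lay outside both H3K4 marks, and the shared peaks stood between them. H3K4me3 covered 36.3% (34.8 to 37.9) of shared and 70.8% (69.8 to 71.8) of alone TFIIE peaks. For TFIIH the order turned round, with H3K4me3 on 37.3% (35.7 to 38.9) of shared and 11.4% (10.5 to 12.3) of alone peaks. Shared minus alone was -34.4 points (-36.3 to -32.6) in the TFIIE list and 25.9 points (24.1 to 27.7) in the TFIIH list, each with the same sign on 20 of 20 chromosomes. Over all peaks H3K4me1 went the same way, with 31.3% of shared and 56.1% of alone TFIIE peaks (-24.8 points, -26.7 to -22.9, 19 of 20 chromosomes). It lay on 29.3% of shared and 16.7% of alone TFIIH peaks (12.6 points, 10.8 to 14.4, 20 of 20 chromosomes). Among peaks in H3K4me3, a restriction chosen after seeing the data, both H3K4me1 signs turned, to 6.48 points for TFIIE and -18.2 for TFIIH.

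**Figure D1:**
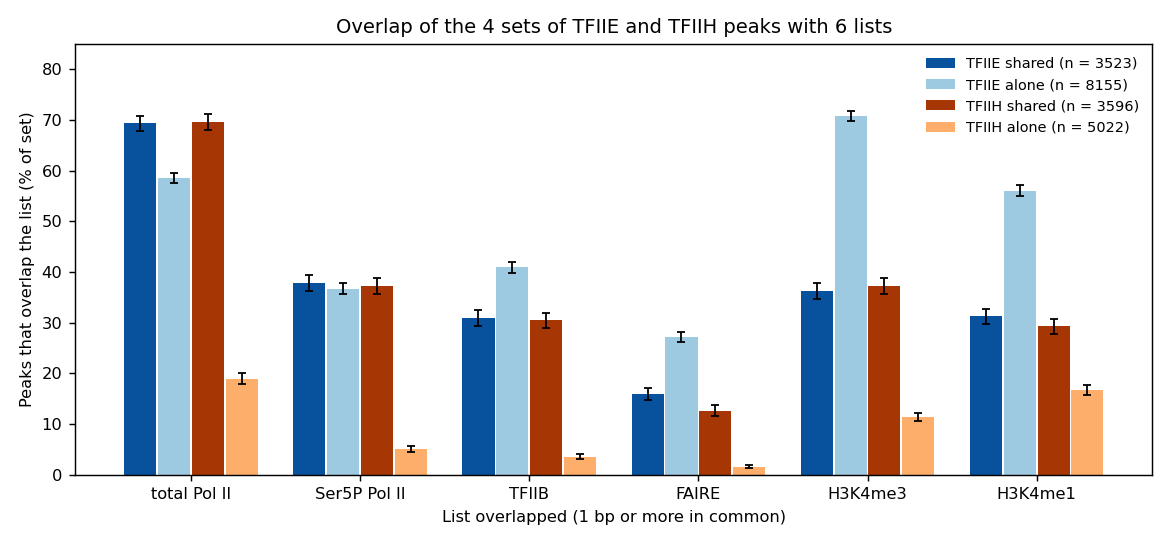
Bars give the percentage of peaks in each of the 4 sets that overlapped each partner list, with Wilson 95% intervals as error bars. TFIIH alone peaks (light orange) are the lowest bar for every list, and TFIIE alone peaks (light blue) are the highest for TFIIB, FAIRE, H3K4me3 and H3K4me1.

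Total Pol II, the enzyme both factors act on, lay on most shared peaks. It overlapped 69.3% (67.8 to 70.8) of shared and 58.6% (57.5 to 59.6) of alone TFIIE peaks, a difference of 10.8 points (8.88 to 12.6) with that sign on 20 of 20 chromosomes. For TFIIH it overlapped 69.6% (68.1 to 71.1) of shared and 18.9% (17.8 to 20.0) of alone peaks, 50.7 points apart (48.9 to 52.6, 20 of 20 chromosomes). The TFIIE difference depended on where the lists were cut by area and on how peaks were weighted. It was -1.51 points in the upper 50% of both lists by area, -5.09 points with the upper 50% of each partner list, -0.0719 points with partner lists of equal length, and 0.189 points (-1.98 to 2.35) with area deciles weighted equally. Within each H3K4 class, a comparison chosen after seeing the data, the gap was wider. Total Pol II lay on 93.4% of shared and 72.2% of alone TFIIE peaks in H3K4me3. The shares were 58.4% and 28.8% in H3K4me1 without H3K4me3, and 55.3% and 23.2% outside both marks.

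Ser5P, the form of Pol II made by the TFIIH kinase, was over all peaks about as frequent on TFIIE peaks with and without TFIIH. It overlapped 37.8% (36.2 to 39.4) of shared and 36.7% (35.7 to 37.8) of alone TFIIE peaks, a difference of 1.08 points (-0.825 to 3.00) that was not called and was positive on 11 of 20 chromosomes. Over 14 other settings the difference ranged from -12.9 to 32.3 points, and it changed sign or call in most of them. Within each H3K4 class, a comparison chosen after seeing the data, the shared peaks had the higher share. Ser5P lay on 79.8% of shared and 47.4% of alone TFIIE peaks in H3K4me3, and on 26.8% and 12.2% in H3K4me1 without H3K4me3. Outside both marks it lay on 12.3% (11.0 to 13.8) and 9.63% (8.17 to 11.3). On TFIIH peaks Ser5P overlapped 37.3% (35.8 to 38.9) of shared and 5.04% (4.47 to 5.68) of alone peaks, a difference of 32.3 points (30.6 to 34.0, 20 of 20 chromosomes). Of all TFIIE peaks with Ser5P, 30.8% (29.4 to 32.2) were shared with TFIIH, while 84.1% (82.3 to 85.8) of TFIIH peaks with Ser5P were shared with TFIIE.

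TFIIB, which places Pol II at the start site, and open chromatin were over all peaks commoner on TFIIE peaks alone than on shared ones. Both were nearly missing from TFIIH peaks alone. TFIIB overlapped 30.9% of shared and 40.9% of alone TFIIE peaks (-10.0 points, -11.9 to -8.16, 19 of 20 chromosomes). It overlapped 30.5% of shared and 3.54% of alone TFIIH peaks (26.9 points, 25.4 to 28.5, 20 of 20 chromosomes). FAIRE lay on 15.9% of shared and 27.1% of alone TFIIE peaks (-11.2 points, -12.7 to -9.63, 19 of 20 chromosomes), and on 12.7% of shared and 1.63% of alone TFIIH peaks (11.0 points, 9.90 to 12.2, 20 of 20 chromosomes). TFIIH peaks that did carry TFIIB or FAIRE were shared with TFIIE in 86.0% (84.0 to 87.8) and 84.7% (81.4 to 87.5) of cases. The TFIIE differences ranged over 14 other settings from -29.1 to 27.9 points for TFIIB and from -20.0 to 9.69 for FAIRE. Both highest values were those within H3K4me3, a restriction chosen after seeing the data. The TFIIB list came from 1 replicate.

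Set against each other, the peaks found alone differed for all 6 partner lists. TFIIE alone exceeded TFIIH alone by 59.4 points for H3K4me3, 39.7 for total Pol II, 39.3 for H3K4me1, 37.4 for TFIIB, 31.7 for Ser5P and 25.5 for FAIRE. Each interval excluded 0 and each sign held on 20 of 20 chromosomes. Taf1 and TFIIA lay the other way, with Taf1 on 9.11% of TFIIE alone and 27.4% of TFIIH alone peaks (-18.2 points, -19.6 to -16.9, 20 of 20 chromosomes) and TFIIA on 7.86% and 12.8% (-4.94 points, -6.05 to -3.86, 19 of 20 chromosomes). With only the peaks in H3K4me3 kept, a choice made after seeing the data, the H3K4me1 difference turned to -17.5 points. There the Taf1 difference was -0.214 points (-2.46 to 1.48) and that of TFIIA turned to 3.60 points (1.72 to 4.94). In neither H3K4 mark the shares of Taf1, TFIIA and CBP were closer. Taf1 was on 30.3% of TFIIE alone and 31.5% of TFIIH alone peaks, TFIIA on 16.3% and 14.4%, and CBP on 7.20% and 6.45%. TFIIE alone stayed higher there for total Pol II (23.2% and 15.3%), TBP (27.2% and 17.1%) and Ser5P (9.63% and 2.26%). The same held for TFIIB (5.73% and 0.271%) and FAIRE (8.96% and 0.418%). None of the 6 partner lists was present on 11.3% (10.7 to 12.0) of TFIIE alone peaks, against 67.1% (65.8 to 68.4) of TFIIH alone peaks. For H3K4me3 the alone sets stayed apart in a wider search: within 5000 bp an H3K4me3 peak was found for 80.9% of TFIIE alone peaks and for 23.4% of TFIIH alone peaks. The share with none of the 6 lists was not recomputed at that distance.

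The shared peaks were a mixture of 2 kinds of site. Peaks were classed as in H3K4me3, in H3K4me1 without H3K4me3, or in neither mark. Of shared TFIIE peaks, 36.3%, 6.56% and 57.1% fell in these classes, and of shared TFIIH peaks 37.3%, 6.65% and 56.1%. TFIIE alone peaks divided into 70.8%, 12.5% and 16.7%, and TFIIH alone peaks into 11.4%, 7.73% and 80.9%. Read the other way, TFIIE peaks were shared with TFIIH in 18.2% of cases in H3K4me3, 18.4% in H3K4me1 without H3K4me3 and 59.7% in neither. TFIIH peaks were shared with TFIIE in 70.1%, 38.1% and 33.2% of cases in the same classes. H3K4me3 held 7052 TFIIE and 1911 TFIIH peaks, and neither mark held 3373 and 6080. The shares of the lists in a class count mostly the same sites over these unequal totals. In both of these classes the longer list had the lower shared share. Meeting was thus the exception among TFIIE peaks at marked promoters and the rule among the fewer TFIIH peaks there. The shared counts were 1280 TFIIE and 1340 TFIIH peaks in H3K4me3, and 2012 and 2017 in neither mark. With counts this close, which list had the lower shared share in a class follows from the totals.

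Within H3K4me3 chromatin, TFIIE peaks joined by TFIIH carried more of the other factors than TFIIE peaks alone. Total Pol II lay on 93.4% of 1280 shared and 72.2% of 5772 alone peaks (21.2 points, 19.3 to 22.9). Ser5P lay on 79.8% and 47.4% (32.3 points, 29.7 to 34.8), TFIIB on 78.3% and 50.4% (27.9 points, 25.2 to 30.4), and FAIRE on 40.4% and 30.7% (9.69 points, 6.78 to 12.6) of the shared and alone peaks. For TFIIB and FAIRE these signs were opposite to those over all TFIIE peaks. The TFIIH peaks of this class showed wider gaps, with total Pol II on 93.1% of 1340 shared and 46.9% of 571 alone peaks, Ser5P on 76.2% and 25.6%, and TFIIB on 74.7% and 24.5%. H3K4me3 TFIIE peaks were also wider when shared, at a median of 260 bp against 140 bp alone. Of them, 48.3% of shared and 8.25% of alone peaks were in area decile 10. In that decile, over all chromatin classes, TFIIB was at 93.5% of shared and 93.9% of alone TFIIE peaks. There FAIRE was at 55.1% and 54.9%, total Pol II at 99.5% and 96.7%, and Ser5P at 94.4% and 84.8%. The part of area and width in the gaps within H3K4me3 was not tested. The restriction to 1 class was chosen after the data had been seen.

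Outside both marks the shared peaks had another make-up. Total Pol II lay on 55.3% of 2012 shared and 23.2% of 1361 alone TFIIE peaks, and on 55.5% of 2017 shared and 15.3% of 4063 alone TFIIH peaks. Taf1, a large subunit of TFIID, lay on 64.0% of shared and 30.3% of alone TFIIE peaks, and on 64.0% of shared and 31.5% of alone TFIIH peaks of this class. TBP was at 56.1% of shared and 27.2% of alone TFIIE peaks, and TFIIA, which steadies TBP on DNA, at 45.0% and 16.3%. By contrast Ser5P was at 12.3% of these shared TFIIE peaks, TFIIB at 1.44% and FAIRE at 0.547%. The ETS1 list, of a T-cell transcription factor, met 1 of the 2012. The class is defined by the absence of both H3K4 marks, so their absence is no result. Input and immunoglobulin tracks were not used, and whether these sites carry a background signal common to several lists was not tested.

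Over all peaks, Taf1 was, of the 14 other lists, the one that most separated shared from alone TFIIE peaks. It overlapped 49.3% (47.6 to 50.9) of shared and 9.11% (8.51 to 9.75) of alone TFIIE peaks, a difference of 40.2 points (38.4 to 41.9, 20 of 20 chromosomes). On TFIIH peaks it was at 47.9% of shared and 27.4% of alone peaks (20.5 points, 18.4 to 22.5, 20 of 20 chromosomes). TFIIA was on 39.7% of shared and 7.86% of alone TFIIE peaks, and 38.0% of shared and 12.8% of alone TFIIH peaks. TFIIF, the partner of Pol II, overlapped 14.2% of shared and 3.13% of alone TFIIE peaks, and 13.5% of shared and 2.45% of alone TFIIH peaks. TBP was at 68.0% and 52.3% of shared and alone TFIIE peaks, and at 66.8% and 18.9% of shared and alone TFIIH peaks. The coactivator CBP was at 22.3% and 11.6% for TFIIE, and at 20.7% and 6.33% for TFIIH. All of these shared minus alone differences were called. The Taf1 list came from 1 replicate; with the peaks that overlapped it left out, a choice made after seeing the data, 19.4% of TFIIE and 33.9% of TFIIH peaks were shared, and shared minus alone for H3K4me3 was -21.5 and 39.1 points.

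Among TFIIE peaks the area separated the classes in a U-shape. H3K4me3 covered 65.4% of TFIIE peaks in decile 1, 43.2% in decile 6 and 93.7% in decile 10. The dip was deepest in the shared peaks, of which 28.7%, 11.3% and 93.8% were in H3K4me3 in deciles 1, 6 and 10, while alone peaks were at 68.6%, 63.4% and 93.7%. Shared and alone TFIIE peaks were thus far apart in decile 6 and alike in decile 10. In shared peaks TFIIB ran the same way, at 18.1%, 5.52% and 93.5% of shared and 24.2%, 39.0% and 93.9% of alone TFIIE peaks in deciles 1, 6 and 10. FAIRE was at 7.45%, 2.21% and 55.1% of shared, and at 15.8%, 26.3% and 54.9% of alone peaks. H3K4me1 was at 38.3%, 13.9% and 63.3% of shared, and at 56.4%, 48.4% and 71.1% of alone peaks.

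Total Pol II was commoner in each higher decile of all TFIIE peaks. Total Pol II overlapped 39.5%, 50.6% and 98.3% of TFIIE peaks in deciles 1, 5 and 10. Among shared peaks it was at 51.1%, 48.6% and 99.5%, and among alone peaks at 38.5%, 51.4% and 96.7%. Ser5P overlapped 20.1%, 23.0% and 90.2% of TFIIE peaks in the same deciles, with a jump to 61.6% in decile 9. In decile 6 it lay on 15.9% of shared and 33.1% of alone peaks, but in decile 10 on 94.4% (92.4 to 95.9) of shared and 84.8% (81.5 to 87.7) of alone peaks. Decile 10 minus decile 1 over all TFIIE peaks was 70.1 points for Ser5P (67.1 to 72.8), 69.9 for TFIIB (67.0 to 72.6), 58.8 for total Pol II (55.8 to 61.6), 39.9 for FAIRE (36.3 to 43.3), 28.3 for H3K4me3 (25.2 to 31.4) and 11.7 for H3K4me1 (7.75 to 15.6). Median widths were 350 bp in decile 10 and 40 bp in decile 1, so 1 bp in common was easier to reach in decile 10. Over 10 other settings H3K4me1 ranged from -16.7 to 33.5 points and FAIRE from 9.95 to 46.7. The lowest values came with 50% of the shorter peak in common for H3K4me1 and with covered length for FAIRE.

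**Figure D2:**
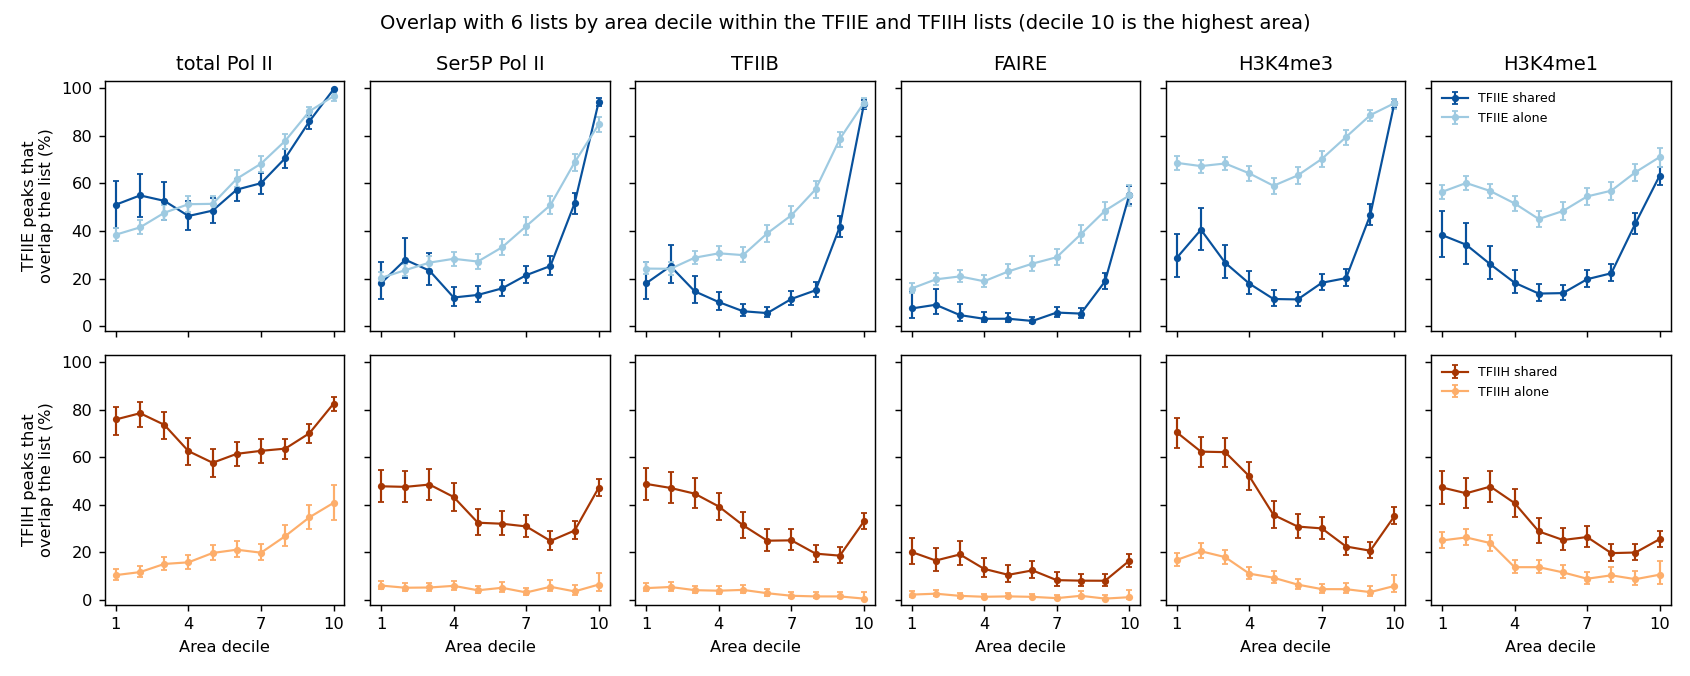
Lines give the percentage of shared (dark) and alone (light) peaks that overlapped each partner list, by area decile within the TFIIE list (top, blue) and the TFIIH list (bottom, orange), with Wilson 95% intervals. Shared TFIIE peaks dip in the middle deciles and reach 93.8% in H3K4me3 in decile 10, while shared TFIIH peaks start at 70.4% in H3K4me3 in decile 1.

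TFIIH peaks were in the promoter mark more often in deciles 1 and 10 than in deciles 5 and 9. H3K4me3 covered 29.5%, 17.8%, 14.0% and 29.5% of TFIIH peaks in deciles 1, 5, 9 and 10, so that decile 10 minus decile 1 was 0.0342 points (-4.27 to 4.33). This difference ranged from -2.40 to 23.8 points over 10 other settings. Among shared TFIIH peaks it covered 70.4% (63.8 to 76.3) in decile 1, 35.8% in decile 5, 20.7% in decile 9 and 35.3% (31.8 to 38.9) in decile 10. Among alone peaks it covered 16.8%, 9.37%, 3.32% and 5.92% in the same deciles. TFIIB followed it in shared TFIIH peaks, at 48.8%, 31.4%, 18.6% and 33.1%, and Ser5P at 47.8%, 32.5%, 29.2% and 47.3%. FAIRE was at 20.2%, 10.6%, 8.10% and 16.5% of shared peaks, and H3K4me1 at 47.3%, 28.8%, 20.0% and 25.6%. Among shared TFIIH peaks, decile 1 thus had the highest share in H3K4me3 of these 4 deciles.

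Alone TFIIH peaks stayed poor in these lists at every area. Ser5P was at 6.07% in decile 1 and 6.51% in decile 10, FAIRE at 2.28% and 1.18%, and TFIIB at 5.01% and 0.592%, the last being 1 of 169 peaks. H3K4me1 was at 25.0% and 10.7%. Total Pol II differed from these, at 10.5% of alone TFIIH peaks in decile 1, 19.8% in decile 5 and 40.8% in decile 10. Among shared TFIIH peaks it was at 75.9%, 57.7% and 82.5% in these 3 deciles. Over all TFIIH peaks Taf1 was at 10.8%, 33.9% and 63.0% in deciles 1, 5 and 10, a difference between decile 10 and decile 1 of 52.2 points (48.2 to 55.8), beside 48.5 points (44.2 to 52.4) for total Pol II. Taf1 on TFIIE peaks went from 5.91% in decile 1 to 30.7% in decile 8 and 27.5% in decile 10.

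In the overlapping pairs, TFIIE area separated promoter-marked pairs more than TFIIH area did. A pair was called promoter-marked when its TFIIE peak was in H3K4me3. Of 221 pairs with both peaks in decile 10, 90.5% (85.9 to 93.7) were promoter-marked. With TFIIE in decile 10 and TFIIH in deciles 1 to 5 the share was 97.6% (95.1 to 98.8) of 287 pairs. With TFIIE in deciles 4 to 8 and TFIIH in deciles 8 to 10 it was 7.54% (6.07 to 9.34) of 1008 pairs, and with both in deciles 1 to 5 it was 35.0% (30.4 to 40.0) of 377 pairs. Of the 1280 shared TFIIE peaks in H3K4me3, 48.3% were in decile 10 of the TFIIE list, and of the 2012 in neither mark 1.04%. In the TFIIH list these classes were alike in this respect, with 18.2% of 1340 and 20.1% of 2017 shared peaks in decile 10. The blocks of deciles were chosen after the whole grid had been seen.

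**Figure D3:**
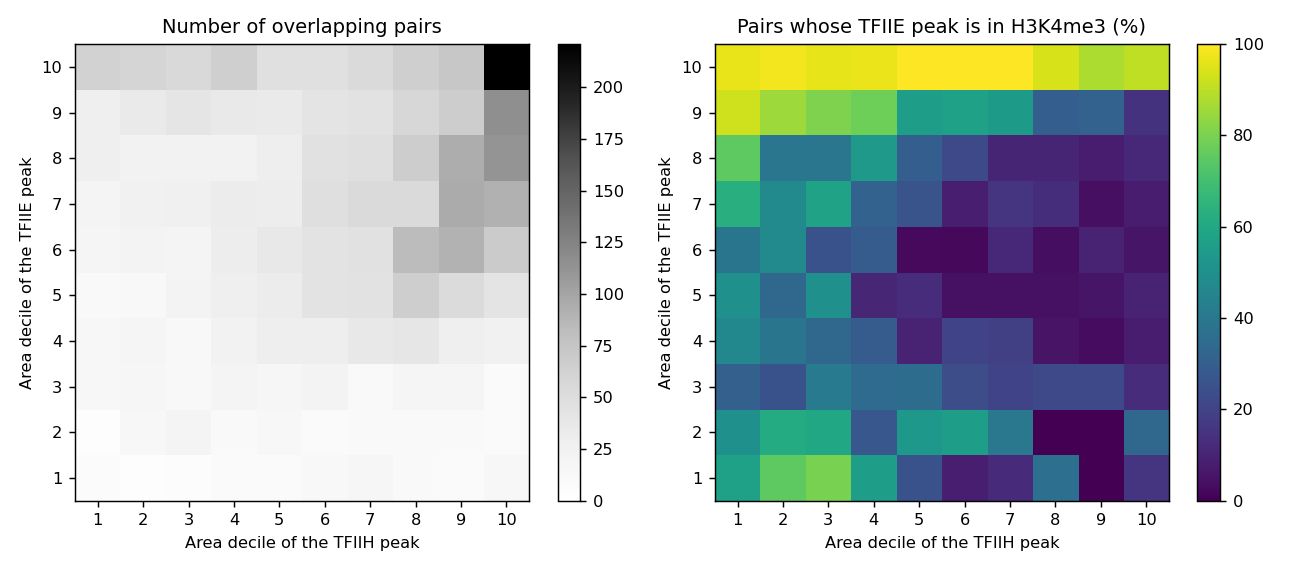
The left panel gives the number of overlapping pairs for each TFIIE area decile (vertical) and TFIIH area decile (horizontal), and the right panel the percentage of these pairs whose TFIIE peak was in H3K4me3. The top row, TFIIE decile 10, is yellow to light green throughout, while the block of middle TFIIE and high TFIIH deciles, with 7.54% of its pairs in H3K4me3, is dark.

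Areas of paired peaks were loosely related. Spearman's rho between TFIIE and TFIIH area was 0.116 across all 3635 pairs, 0.341 across the 1386 pairs in H3K4me3, 0.332 across the 232 in H3K4me1 without H3K4me3, and 0.255 across the 2017 in neither mark. These are descriptions across sites of the same 2 lists, in which the width of a peak enters its area.

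The paired peaks also differed in how exactly they coincided. In H3K4me3 the centres of TFIIE and TFIIH were a median of 50 bp apart (quartiles 20 and 90 bp), and in neither mark 10 bp (quartiles 5 and 20 bp), the width of 1 bin. Both ends of the paired peaks lay within 20 bp of each other in 7.43% of H3K4me3 pairs, 42.7% of pairs in H3K4me1 without H3K4me3 and 64.7% of pairs in neither mark. H3K4me3 minus neither was -57.2 points and ranged from -77.8 to -39.5 over 12 other settings. The median TFIIE peak was 270 bp wide and its TFIIH partner 150 bp in H3K4me3 pairs, against 160 and 170 bp in neither mark. Among pairs with both peaks 100 to 200 bp wide, a restriction added after seeing the data, coinciding ends were found in 68 of 232 H3K4me3 pairs (29.3%) and 1288 of 1714 pairs in neither mark (75.1%).

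**Figure D4:**
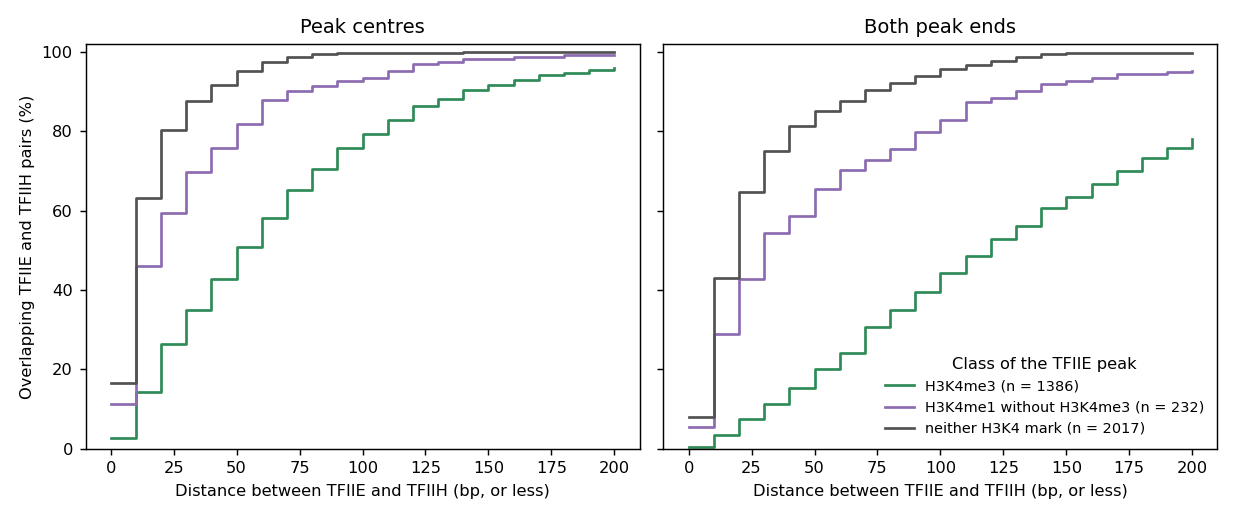
Curves give the cumulative percentage of overlapping TFIIE and TFIIH pairs whose centres (left) or whose both ends (right) lay within the distance on the horizontal axis in bp, by the class of the TFIIE peak. At 20 bp the curves for centres stand at 26.4% in H3K4me3, 59.5% in H3K4me1 without H3K4me3 and 80.4% in neither mark.

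Distances to other lists followed the same classes. Shared TFIIE peaks in H3K4me3 lay a median of 45 bp from the nearest total Pol II centre and 50 bp from the nearest Taf1 centre, against 15 and 10 bp in neither mark, among peaks that overlapped those lists. Shared TFIIH peaks in H3K4me3 were 55 bp from total Pol II and 30 bp from Taf1, against 15 and 10 bp in neither mark. TFIIB lay 35 bp from TFIIE and 60 bp from TFIIH in the shared peaks of H3K4me3. TBP, which starts assembly, lay 40 bp from TFIIE and 65 bp from TFIIH there. Distances between centres of overlapping peaks are bounded by the peak widths. Median widths of shared TFIIE and TFIIH peaks were 260 and 150 bp in H3K4me3, against 160 and 170 bp in neither mark. No comparison at equal width was made, so these distances give no order of the factors along the DNA.

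Seen from the Pol II list, most peaks had neither late factor. Of 11606 total Pol II peaks in H3K4me3, 10.3% had both factors, 32.4% only TFIIE, 1.68% only TFIIH and 55.6% neither. Of the 6431 outside H3K4me3, 19.3% had both, 9.05% only TFIIE, 10.5% only TFIIH and 61.2% neither. Among the Pol II peaks with a late factor, TFIIE only was thus the largest group in H3K4me3, and both factors the largest group outside it. For TFIIB the shares were 13.0%, 39.9% and 1.61% of 7663 peaks in H3K4me3, and 2.64%, 13.4% and 1.11% of 3336 peaks outside it. Of 8373 Ser5P peaks in H3K4me3, 11.8% had both factors, 33.0% only TFIIE and 1.36% only TFIIH, and of 2271 outside it 13.5%, 11.2% and 4.76%. Of 5132 FAIRE peaks in H3K4me3, 7.89% had both and 36.0% only TFIIE, against 0.711% and 7.78% of the 6044 outside it.

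**Figure D5:**
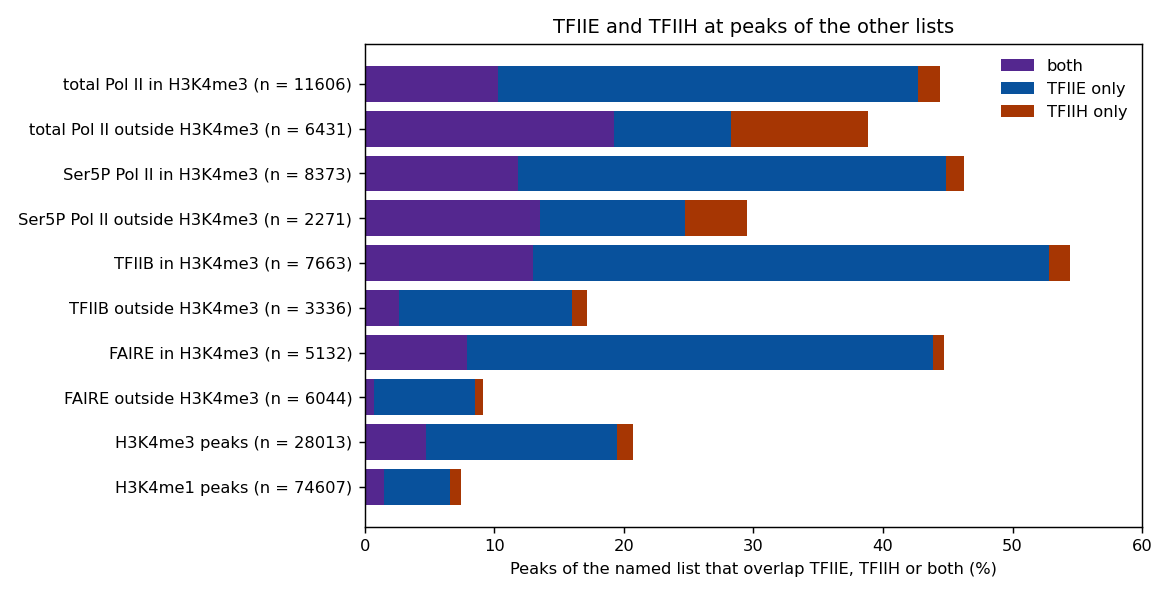
Stacked bars give the percentage of peaks of each list that overlapped both TFIIE and TFIIH, TFIIE only or TFIIH only, with the number of peaks in brackets. TFIIE only makes up most of each bar in H3K4me3, and the bar of total Pol II outside H3K4me3 holds 19.3% with both and 10.5% with TFIIH only.

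The strongest Pol II peaks carried both late factors most often. In decile 10 of the total Pol II list, 41.2% (39.0 to 43.5) of peaks had both, 43.3% only TFIIE and 0.832% only TFIIH. The share with both was not monotonic, at 2.22% in decile 1, 17.7% in decile 4, 5.27% in decile 7 and 12.5% in decile 9. TFIIH only was highest in decile 4, at 11.1%. For Ser5P the share with both was 3.00%, 10.9% and 47.5% in deciles 1, 5 and 10, and for TFIIB 0.909%, 2.27% and 49.0%. In the short TFIIF list 38.3% of 1262 peaks had both factors, 21.4% only TFIIE and 9.98% only TFIIH.

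Shared TFIIE peaks and shared TFIIH peaks describe the same places by the rule of the split, so likeness between them is no result. An interval for 2 separate sets does not apply to them, and none is given. Of the 6 partner lists FAIRE differed most between them, at 15.9% of shared TFIIE and 12.7% of shared TFIIH peaks (3.27 points). In H3K4me3 the median width was 260 bp for shared TFIIE peaks and 150 bp for shared TFIIH peaks, and FAIRE lay on 40.4% of the TFIIE and 30.7% of the TFIIH peaks.

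The highest peaks of each set illustrate this, given by mm9 position; gene annotation of that build was not used here. TFIIE ranked 1 and 3 on chromosome 11 at 87235851 to 87236760 (910 bp) and at 87239901 to 87240610 (710 bp). The TFIIH peaks of rank 3 (87236191 to 87236580) and rank 1 (87240041 to 87240450) lay inside these intervals. Both TFIIE peaks overlapped 9 further lists: CBP, total Pol II, H3K4me1, H3K4me3, TBP, Ser5P, TFIIA, TFIIB and TFIIF. TFIIE rank 2, on chromosome 1 at 135957261 to 135958170, added FAIRE and Taf1 to these. TFIIH rank 2, on chromosome 4 at 131825931 to 131826300, overlapped 10 lists, Ser2P Pol II among them.

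The highest alone peaks contrasted with one another. The first TFIIE peak without TFIIH came at rank 113, on chromosome 11 at 57915991 to 57916600, with 10 other lists on it and a TFIIH peak 660 bp away. Ranks 123 (chromosome 3, 103188791 to 103189330) and 142 (chromosome 3, 137644341 to 137644750) also had total Pol II, Ser5P, TFIIB and H3K4me3. The first TFIIH peak without TFIIE came at rank 17, on chromosome 3 at 75006781 to 75007120, and overlapped none of the 14 other lists, with the nearest TFIIE peak 35.6 kb away. Rank 34 (chromosome 9, 108191791 to 108192110) overlapped H3K4me3 only, and rank 63 (chromosome 4, 108560691 to 108561040) CBP, TBP and Taf1. TFIIE peaks alone with none of the 6 partner lists began at rank 1434, on chromosome 8 at 107100761 to 107100950, which overlapped TFIIA and no other list. They went on at rank 1631 (chromosome 19, 30300381 to 30300560) with TBP and Taf1, and at rank 1639 (chromosome 16, 42149091 to 42149270) with CBP and Taf1. Among TFIIH alone peaks with none of the 6, ranks 17 and 63 were followed by rank 74, on chromosome 2 at 62296091 to 62296480, which again overlapped no other list.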

How the data were processed

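Peaks were taken from 16 deposited lists of double-positive thymocytes, 1 per target. Each gave chromosome, start, end and area, the authors' signal value summed over the peak, and depth was unknown. Per the names in the deposited files, tracks other than FAIRE had artefact regions removed and were scaled and background-subtracted, and replicates were merged for TFIIE and TFIIH but not for CBP, Taf1 and TFIIB. Ends fell on 10 bp bins. Build mm9 is given per the submitters' processing notes. What is not given in the sources used here is the aligner, the caller and the threshold.

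Overlap meant 1 bp or more in common, and deciles were cut by area rank within a list. Members and lists were chosen with earlier results of these data known. Regions were named by rule: the 3 peaks of highest area in each of the 4 sets, and in each alone set the 3 highest with none of the 6 partner lists. Start sites were not examined, since no mm9 annotation was used here. No chance placement was run, so shares are compared with each other only. Alternatives covered the overlap rule, threshold, list length, chromosomes, merging, covered length, area and width; others were added after seeing the data. Python 3.11.15, numpy 2.4.6, scipy 1.17.1 and matplotlib 3.10.9 were used. On the TFIIE and TFIIH peaks of chromosome 19 the overlap code gave 0 mismatches over 3 rules against a direct count. On simulated counts the difference interval held the true value in 94.55% to 95.5% of draws.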

Additional observations from a re-analysis of the deposited data

How the results depend on the processing

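Of 75 values recomputed under 17 other settings, 35 carry the comparisons. All shared minus alone and TFIIE alone minus TFIIH alone signs for H3K4me3 held, as did the class contrasts in sharing and in coinciding ends. No result lost its call or sign with autosomes only. In what follows shared minus alone is in percentage points, and the cause of each change was not tested unless the setting itself removes peaks.

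With 50% of the shorter peak in common, 29.2% of TFIIE and 40.4% of TFIIH peaks were shared, the TFIIE Ser5P difference was 2.84, and decile 10 minus 1 was -16.7 for H3K4me1 on TFIIE and -2.40 for H3K4me3 on TFIIH. With 500 bp allowed the shares were 36.4% and 44.7%, Ser5P was -0.919, and decile 10 minus 1 on TFIIH was 3.98 for TFIIB, 3.15 for FAIRE and -1.01 for H3K4me3. In the upper 50% of both lists, TFIIE total Pol II was -1.51 and Ser5P -12.9. TFIIE alone minus TFIIH alone was -1.33 for TFIIF and -0.634 for Ser2P, and decile 10 minus 1 on TFIIH was 23.8 for H3K4me3, 8.42 for H3K4me1 and 0.238 for ETS1. With the upper 50% of partner lists, total Pol II was -5.09 and Ser5P 1.84. With partner lists of equal length total Pol II was -0.0719. With the TFIIE list at the length of the TFIIH list, 37.5% and 38.7% were shared and Ser5P was -4.55. With neighbours within 500 bp merged, 34.8% of TFIIE sites were shared, and decile 10 minus 1 on TFIIH was 9.66 for H3K4me3 and -0.327 for H3K4me1. With area deciles weighted equally, total Pol II was 0.189 and Ser5P -10.3. Within width bins Ser5P was -4.67 and TFIIF, TFIIE alone minus TFIIH alone, -0.197.

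Counting covered length, 26.1% of TFIIE bases were shared. Shared minus alone was 8.97 for Ser5P, 0.549 for TFIIB, -7.54 for FAIRE, -23.4 for H3K4me3 and -18.8 for H3K4me1 in TFIIE. In TFIIH it was 42.9 for total Pol II, 29.2 for Ser5P, 22.3 for TFIIB, 5.41 for FAIRE and 9.17 for H3K4me1. TFIIE alone minus TFIIH alone was 41.4 for total Pol II, 29.0 for Ser5P, 30.9 for TFIIB, 17.1 for FAIRE, 61.4 for H3K4me3, 32.3 for H3K4me1 and -0.0949 for TFIIF. Decile 10 minus 1 on TFIIE was 52.7 for total Pol II, 53.6 for Ser5P, 45.1 for TFIIB, 9.95 for FAIRE, 22.3 for H3K4me3 and -11.2 for H3K4me1, and on TFIIH 35.4 for total Pol II and 2.25 for FAIRE.

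Other settings were added after seeing the data. Within H3K4me3, TFIIE shared minus alone was 32.3 for Ser5P, 27.9 for TFIIB, 9.69 for FAIRE, 6.48 for H3K4me1, 2.57 for ETS1 and -0.0840 for H3K36me3, and H3K4me1 in TFIIH was -18.2. TFIIE alone minus TFIIH alone was then -17.5 for H3K4me1, 3.60 for TFIIA and 0.108 for H3K36me3. Outside H3K4me3, Ser5P was 3.08 in TFIIE and Ser2P, TFIIE alone minus TFIIH alone, -0.194. Without peaks on Taf1, 19.4% and 33.9% were shared, TFIIE Ser5P was 10.3 and TFIIB 3.16, and decile 10 minus 1 on TFIIH was 11.4 for H3K4me3 and -3.36 for H3K4me1.

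No paired analysis was possible because each target had 1 list. Depth was unknown, the TFIIE and TFIIH lists came from merged replicates, and the authors' threshold decides which peaks count as alone. The TFIIE list was 1.36 times as long as the TFIIH list. Peaks with a weak signal in the other track below that threshold cannot be told apart from peaks without one.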

Other observations

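Elongation marks touched few TFIIE and TFIIH peaks. Ser2P Pol II, the form found along transcribed gene bodies, overlapped 4.51% of shared and 1.13% of alone TFIIE peaks (3.39 points, 2.70 to 4.15, 18 of 20 chromosomes). It overlapped 4.39% of shared and 0.976% of alone TFIIH peaks (3.42 points, 2.72 to 4.18, 19 of 20 chromosomes). On TFIIH peaks it was at 1.39% in area decile 1 and 7.90% in decile 10. The Ser2P Pol II list was short, at 1811 peaks over 0.858 Mb, which limits the shares it can reach. Of its peaks, 8.50% had both factors, 4.14% only TFIIE and 2.60% only TFIIH. H3K36me3, a mark of gene bodies, was at 2.78% of shared and 1.96% of alone TFIIE peaks, and at 2.70% of shared and 4.50% of alone TFIIH peaks (-1.80 points, -2.58 to -1.01). ETS1 was at 5.48% of shared and 9.25% of alone TFIIE peaks, and at 4.23% of shared and 1.04% of alone TFIIH peaks.

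TFIIE peaks alone were the most clustered. Another TFIIE peak lay within 500 bp of 17.2% of shared and 31.9% of alone TFIIE peaks, and another TFIIH peak within 500 bp of 10.5% of shared and 3.96% of alone TFIIH peaks. By chromosome, the shared share ran from 14.8% on X to 37.6% on chromosome 16 for TFIIE, and from 18.0% on X to 48.0% on chromosome 11 for TFIIH. Chromosome X held the fewest TFIIE and TFIIH peaks of the 20. H3K4me3 lay on 17.9% of the shared TFIIE peaks of chromosome 14, the lowest share, and on 58.8% of the 17 on X, the highest. TFIIE alone peaks varied less, from 65.9% in H3K4me3 on chromosome 16 to 78.0% on chromosome 7.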
